A study of Mus musculus with 27 samples.

Results

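The genes followed here were a list of 36 genes for charging tRNA and supplying amino acids: 19 cytosolic aminoacyl-tRNA synthetases, the tRNA exporter Xpot, 7 enzymes of amino acid synthesis, 2 enzymes of the mitochondrial one-carbon pathway, 6 amino acid transporters and the translation repressor Eif4ebp1. Each gene was read from a probe set annotated to that gene alone, the one with the highest mean log2 signal over all arrays. By this rule 33 of the 36 genes were measured, among 19935 genes in all. Mars was listed under its present symbol Mars1. Aars lay on a probe set shared with Exosc6, and Dars and Pycr1 were not analysed here.

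RNA from mouse bone marrow cells was read on 27 Affymetrix arrays, 9 groups of 3 that the study describes as biological replicates. The cells came from femurs and tibiae of C57BL/6 mice aged 8 to 12 weeks. In 4 groups Cyclosporin A (CsA), an inhibitor of the phosphatase calcineurin, was given at 2 µg/ml 30 min ahead of Flt3-L and kept in the medium, and RNA was taken at 12 h, 24 h, 48 h or 11 days. Another 4 groups received Flt3-L alone, at about 200 ng/ml, for the same times. Flt3-L is the cytokine that drives dendritic cell development from marrow progenitors, and it was supplied from transfected B16 tumour cells in all 8 of these groups. The last group was unstimulated marrow, and the labels do not state whether those cells were fresh or cultured. RNA was taken from whole cell mixtures with no sort described, so that fewer cells of a type and less RNA per cell cannot be told apart in any value below.

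Aminoacyl-tRNA synthetases join each amino acid to its tRNA and so feed the ribosome. When amino acids run short, uncharged tRNA activates the kinase GCN2, phosphorylated eIF2 lowers general translation, and the transcription factor ATF4 is made in greater amount. ATF4 is known to bind C/EBP-ATF composite elements and to raise many synthetase, amino acid synthesis and transporter genes, Asns being the classical example. These statements are background from other systems and not results of these arrays.

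The promoters of the members are shown because a C/EBP-ATF composite core is a known feature of several of them. Promoters of 26 of the 36 members were in the promoter set searched here (RefSeq genes, build GRCm38.p6), 250 bases before to 50 after the start site. The other 10 members, among them Cars, Nars, Slc7a5 and Slc1a5, were absent from that set and were not searched. The core was searched as TGATGNAA on both strands, which reads TTNCATCA when it lies on the opposite strand. It was found in 8 of 26 member genes (30.8%), against 4.51% of 27025 genes in the whole promoter table. The longer TGATGCAAT, which contains the shorter core, was found in 3 member genes (11.5%), against 0.222% of all genes. The 8 genes were Aars, Gars, Iars, Tars, Yars, Asns, Pycr1 and Slc1a4, and 6 of them were measured. Their sequences from 40 bases before the start site, on the strand of the gene, have the match in capitals.
Gars: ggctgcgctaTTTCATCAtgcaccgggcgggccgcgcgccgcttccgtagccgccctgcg
Iars: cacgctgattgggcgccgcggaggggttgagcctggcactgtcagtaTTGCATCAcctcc
Tars: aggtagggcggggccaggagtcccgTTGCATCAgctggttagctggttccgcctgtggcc
Yars: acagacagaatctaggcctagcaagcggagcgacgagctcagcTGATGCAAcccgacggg
Asns: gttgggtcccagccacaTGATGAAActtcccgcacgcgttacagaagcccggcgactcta
Slc1a4: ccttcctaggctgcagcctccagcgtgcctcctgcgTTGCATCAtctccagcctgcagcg

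The windows lie at chr6:55037961-55038020 on the plus strand for Gars, chr13:49682090-49682149 on the plus strand for Iars, and chr15:11399639-11399698 on the minus strand for Tars. Those of Yars, Asns and Slc1a4 lie at chr4:129189863-129189922 on the plus strand, chr6:7693190-7693249 on the minus strand and chr11:20332694-20332753 on the minus strand. With the start site counted as 0, the capitals began at -30 in Gars, -23 in Asns, -15 in Tars, -4 in Slc1a4, 3 in Yars and 7 in Iars. All 6 of these measured genes were higher with CsA in at least 1 comparison described below, and 1 of them, Yars, in all 4. Of the 17 measured members with a promoter but no match, 14 were higher at least once and 5 in all 4. A match is a description of letters in this window and does not show that a factor bound there.

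Arrays of a group correlated closely over all genes (lowest r = 0.9964 within a group), and the closest array belonged to the same group for 25 of 27. CsA array 3 at 12 h and CsA array 3 at 24 h were instead each nearest to Flt3-L array 3 of its time. Without them 14 members were called at 12 h and 12 at 24 h, against 14 and 16 with them. The marker genes of marrow cell types behaved as follows in cultures with Flt3-L alone. Summed signal of 3 monocyte and macrophage markers was 7059.7 to 7454.3 at 12 h and 15667.1 to 16640.6 at 11 days, against 3921.2 to 4007.6 in unstimulated marrow. The sum of 4 conventional dendritic cell markers was 554.4 to 601.6 at 12 h and 4698.9 to 5188.0 at 11 days, against 545.2 to 577.4 in unstimulated marrow. Both mature lineages were thus highest late. Granulocyte precursor, neutrophil and erythroid markers, abundant in unstimulated marrow, were at 385.1 to 448.2, 1009.9 to 1117.0 and 224.1 to 254.4 at 11 days. The progenitor markers Kit, Cd34, Myb and Flt3 summed to 4494.0 to 4523.9 at 12 h and 1269.9 to 1325.0 at 11 days, against 4075.7 to 4469.5 in unstimulated marrow. Array signals have no true zero, so no marker was listed at 0.

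In CsA cultures many of the genes were modestly higher than with Flt3-L alone, from the earliest time on. At 12 h 14 of 33 measured members rose and none fell, in a comparison in which 2.82% of all genes were called higher and 3.91% lower. Genes with a limma p under 0.05 after Benjamini-Hochberg adjustment over all genes counted as called. In the CsA comparisons, rose and fell mean called higher or lower than with Flt3-L alone at the same time. They do not describe a change over time. At 24 h 16 of 33 rose and none fell (all genes: 1.6% higher, 2.19% lower). The share of members called higher thus stood far above the background share at both times. The list was chosen with earlier results of these data known, so the 2 shares describe the list and do not test it. At 48 h again 16 rose and none fell (all genes: 2.17% higher, 2.35% lower). At 11 days 22 rose and 1 fell (all genes: 4.92% higher, 7.08% lower). The median log2 change of the members was 0.18 at 12 h, 0.23 at 24 h, 0.24 at 48 h and 0.30 at 11 days, beside medians over all genes of -0.04, -0.01, 0.02 and 0.03.

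The count at 12 h depended most on the fit. It was 7 when only those 6 arrays entered the model, and 8 without Flt3-L array 2 or 3 or without CsA array 1 or 2 at that time. Subtracting each array's median log2 signal gave 20 members higher and none lower at 12 h. That scaling called 1052 of all genes higher and 323 lower, against 562 higher and 779 lower without it. The mean signal with CsA was above that with Flt3-L alone for 31 of 33 members at 12 h, 31 at 24 h, 32 at 48 h and 28 at 11 days. At 12 h the lowest CsA array exceeded the highest array without it for 24 members and no member showed the opposite order. The same held for 21 members at 24 h and 25 at 48 h, with no member the other way, and for 26 at 11 days, with 1 the other way. Neither the means nor the array orders were counted over all genes. These numbers therefore have no background share beside them, and members read on the same arrays are not independent of each other.

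**Figure D1:**
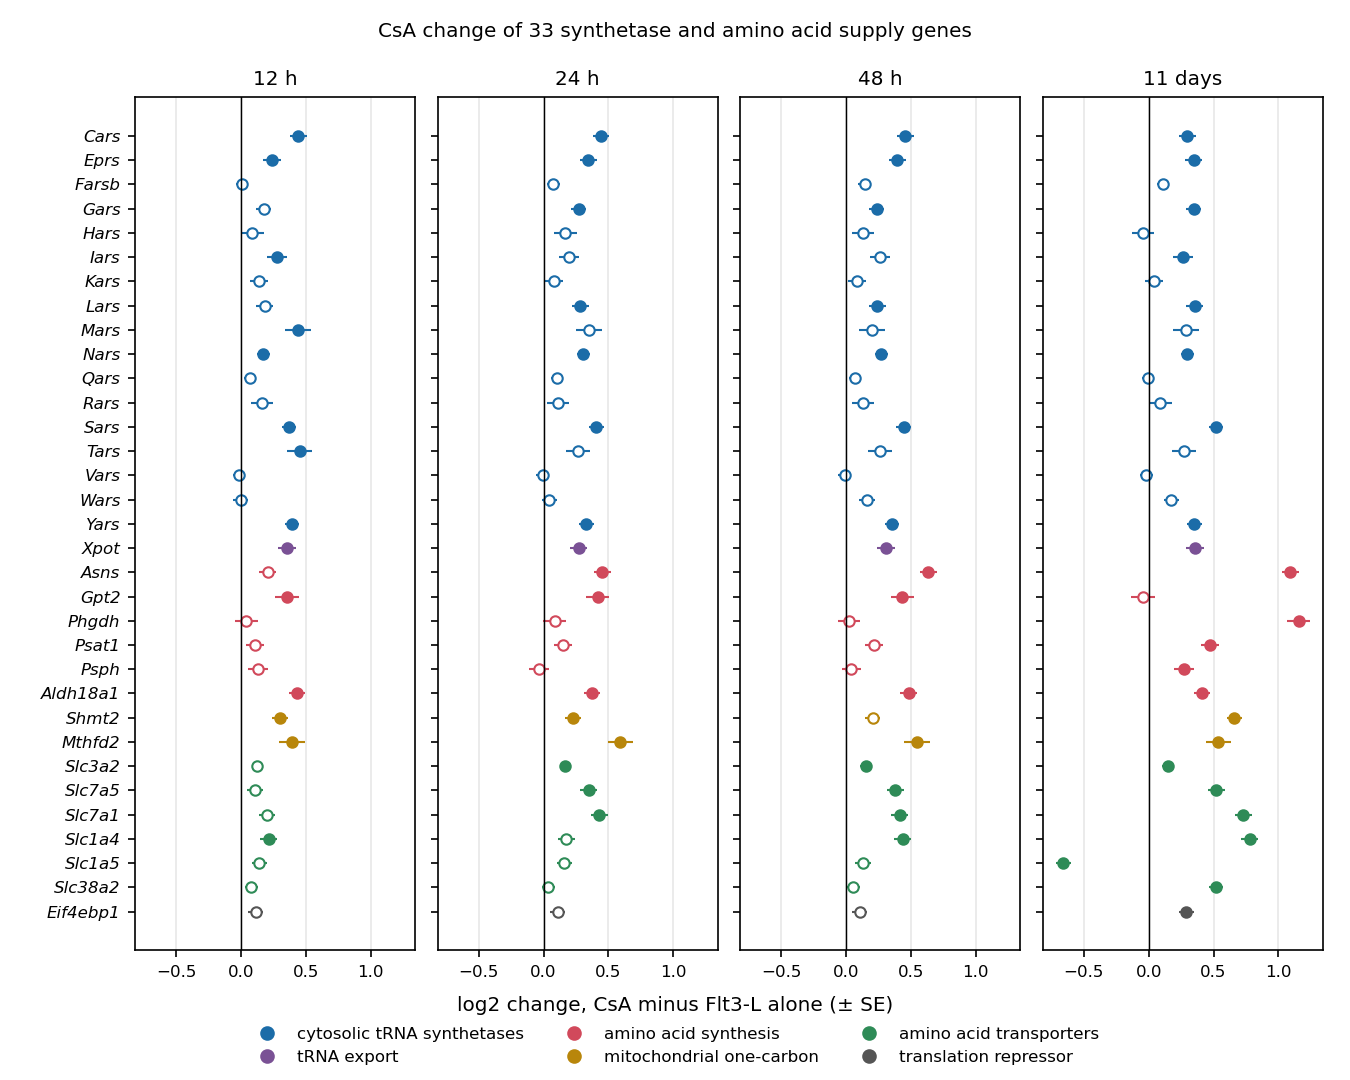
Log2 change with CsA minus Flt3-L alone (x axis, bars are ± SE from limma) for the 33 measured members (rows, coloured by role) at 12 h, 24 h, 48 h and 11 days. Filled points passed an adjusted p under 0.05, 14, 16, 16 and 23 in the 4 panels; the only filled point left of zero is Slc1a5 at 11 days.

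Among the cytosolic synthetases 8 of 17 measured genes rose with CsA at 12 h, 7 at 24 h, 7 at 48 h and 8 at 11 days, and none fell. Cars, Eprs, Nars, Sars and Yars, which charge tRNA with cysteine, with glutamate and proline, with asparagine, with serine and with tyrosine, rose at all 4 times. Gars and Lars, for glycine and leucine, rose at 24 h, 48 h and 11 days, and with the replicate block also at 12 h (adjusted p = 0.0426 and 0.0443). Iars, for isoleucine, rose at 12 h and 11 days. Mars and Tars, for methionine and threonine, passed the test at 12 h and, in the fit used here, at none of the later times. Their change at 11 days was not called as different from the mean of the earlier ones. A further quantile normalization gave 25 members higher at 11 days, against 22 in the fit used here.

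Cars had 887.8, 884.7 and 876.6 signal units in CsA cultures at 12 h, against 623.3, 654.1 and 675.0 with Flt3-L alone. At 24 h it had 630.1, 724.4 and 747.7 with CsA and 515.4, 473.6 and 557.1 without. At 48 h it had 694.2, 746.1 and 693.8 with CsA and 533.7, 489.7 and 532.1 without. The groups did not overlap at any of these times, and the log2 change was 0.44 ± 0.065 at 12 h (SE, n = 3 each, adjusted p = 0.000296), 0.44 at 24 h (adjusted p = 0.000132) and 0.46 at 48 h (adjusted p = 6.79e-05). At 11 days it was 0.30 (adjusted p = 0.00215).

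Sars read 1679.7, 1674.3 and 1771.7 in CsA cultures at 24 h, against 1265.0, 1233.0 and 1368.9 with Flt3-L alone. At 48 h its signals were 1580.6, 1609.1 and 1591.5 with CsA, against 1139.5, 1123.2 and 1259.5 without. The lowest CsA array lay above the highest array without CsA at both times. The log2 changes were 0.37 at 12 h, 0.41 at 24 h (adjusted p = 5.9e-05), 0.44 at 48 h (adjusted p = 1.53e-05) and 0.52 at 11 days (adjusted p = 1.89e-07), each with SE 0.056.

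At 12 h Yars was at 720.8, 712.8 and 734.9 in CsA cultures and at 547.6, 562.9 and 542.5 with Flt3-L alone, a log2 change of 0.39 ± 0.055 (adjusted p = 0.000199). Tars was at 453.5, 434.6 and 386.2 with CsA and at 321.1, 303.7 and 304.6 without, a log2 change of 0.45 ± 0.095 (adjusted p = 0.00693). Mars was at 1281.5, 1272.6 and 1290.1 with CsA and at 1060.8, 876.0 and 910.4 without, a log2 change of 0.44 ± 0.10 (adjusted p = 0.0118). All 3 genes were separated between the groups. The call for Mars was lost without Flt3-L array 2 or array 3, where its adjusted p reached 0.057. Later log2 changes of Tars were 0.27 at 24 h, 0.26 at 48 h and 0.27 at 11 days (adjusted p = 0.148, 0.141 and 0.0652), and those of Mars were 0.35, 0.20 and 0.29 (adjusted p = 0.051, 0.368 and 0.0605). With the replicate number as a block Mars was called at 24 h (adjusted p = 0.0251) and Tars was not (adjusted p = 0.0887), and at 11 days both were called (adjusted p = 0.0356 and 0.0397).

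The changes of the other called synthetases ran from 0.17 for Nars at 12 h to 0.39 for Eprs at 48 h. At 12 h the calls of Eprs, Nars and Iars were each lost in the fit of those 6 arrays alone, with adjusted p = 0.1, 0.136 and 0.108, and each without several single arrays, among them CsA array 1 or 2. Likewise the calls of Gars and Lars at 24 h and 48 h were lost in the fits of the compared groups alone (adjusted p = 0.0969, 0.107, 0.0811 and 0.0877), and that of Iars at 11 days (adjusted p = 0.0715). With the replicate block Iars was also called at 48 h (adjusted p = 0.035). Iars has a second probe set, which gave log2 differences of 0.17, 0.25, 0.30 and 0.34 at the 4 times, of the same sign as 0.28, 0.19, 0.26 and 0.26 on the probe set used. The probe set shared by Aars and Exosc6 differed by 0.22, 0.45, 0.425 and 0.32 at the 4 times, a value that cannot be assigned to either gene.

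Not every synthetase moved. In the fit used here Farsb (a phenylalanine synthetase subunit), Hars, Kars, Qars, Rars, Vars and Wars (for histidine, lysine, glutamine, arginine, valine and tryptophan) passed the test in none of the CsA comparisons. Wars passed at 11 days with the replicate block (adjusted p = 0.0281). The log2 changes of these 7 genes ran from -0.04 for Hars at 11 days to 0.175 for Wars at 11 days (adjusted p = 0.0558). Vars stayed near zero, between -0.018 and -0.007 with SE 0.048. At 48 h it read 1038.0, 1007.3 and 1024.3 with CsA and 1076.4, 1026.8 and 992.5 with Flt3-L alone, and the groups overlapped.

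Xpot, the exportin that carries mature tRNA out of the nucleus, rose at all 4 times, by log2 changes of 0.36 at 12 h (SE 0.069, adjusted p = 0.0039), 0.27 at 24 h (adjusted p = 0.0241), 0.31 at 48 h (adjusted p = 0.00739) and 0.36 at 11 days (adjusted p = 0.000598). Its call at 24 h was lost in the fit of the compared groups alone (adjusted p = 0.126) and without array 1 or 2 of Flt3-L alone or CsA array 2 or 3 (adjusted p up to 0.171), and its call at 48 h without CsA array 2 (adjusted p = 0.0503).

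**Figure D2:**
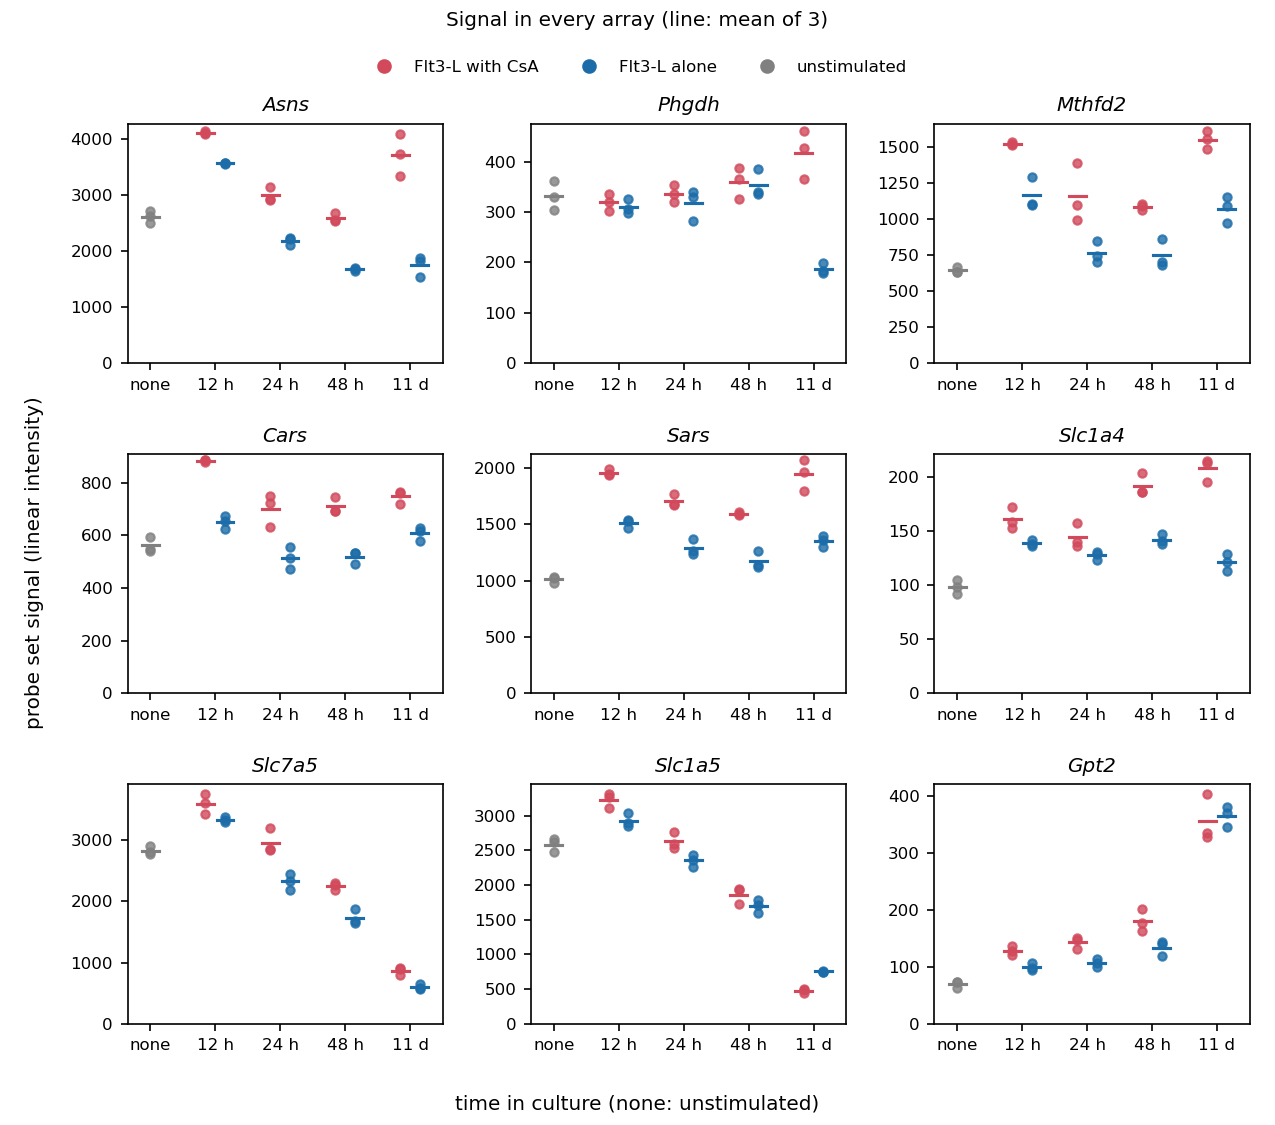
Probe set signal (y axis, linear intensity from 0) in every array of 9 members against time in culture, with CsA left of Flt3-L alone at each time and unstimulated marrow at the left; points are arrays and lines are means of 3. Asns and Slc1a4 are separated most at 11 days, Phgdh is separated at 11 days only, Cars and Sars are separated at each time, and every Slc1a5 array with CsA at 11 days lies below those without.

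Of the 6 measured enzymes of amino acid synthesis, 2 rose with CsA at 12 h, 3 at 24 h, 3 at 48 h and 5 at 11 days, and none fell. Asns, the asparagine synthetase, had the largest change of any member at 48 h. Its signals in CsA cultures were 2916.1, 2922.8 and 3147.2 at 24 h, against 2115.0, 2236.1 and 2207.3 with Flt3-L alone. They were 2552.2, 2676.8 and 2537.8 with CsA at 48 h, against 1641.0, 1671.7 and 1698.2 without. They were 3342.7, 4088.6 and 3721.2 with CsA at 11 days, against 1823.8, 1866.9 and 1542.0 without. The arrays did not overlap at any of the 3 times. The log2 change of Asns was 0.21 ± 0.066 at 12 h (adjusted p = 0.0583, not called), 0.45 at 24 h (adjusted p = 0.000109), 0.63 at 48 h (adjusted p = 9.72e-07) and 1.09 at 11 days (adjusted p = 8.86e-12), the last a 2.13-fold difference. Its arrays did not overlap at 12 h either (4090.8 to 4138.7 with CsA, 3556.2 to 3569.3 without). With the replicate block the 12 h change was called (adjusted p = 0.0411).

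Aldh18a1, which makes the glutamate semialdehyde precursor of proline and ornithine, was steadily higher. At 12 h it read 815.8, 798.4 and 779.1 with CsA, against 602.0, 589.4 and 584.8 with Flt3-L alone. At 48 h it read 867.6, 934.8 and 886.1 with CsA, against 601.6, 630.0 and 697.9 without. The 3 CsA arrays exceeded the others at both times, and the log2 changes at the 4 times were 0.43, 0.375, 0.48 and 0.41 (SE 0.063, adjusted p = 0.000257, 0.000476, 2.14e-05 and 2.76e-05).

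The serine synthesis enzymes were called at 11 days and at no earlier time. Phgdh, which commits glycolytic 3-phosphoglycerate to serine, read 365.4, 461.2 and 427.7 in CsA cultures at 11 days, against 178.8, 199.4 and 182.2 with Flt3-L alone. Its lowest CsA array stood well above all 3 arrays without CsA, and the log2 change was 1.16 ± 0.088, or 2.23-fold (adjusted p = 5.62e-10). At 12 h, 24 h and 48 h its log2 changes were 0.04, 0.09 and 0.02 (adjusted p = 0.786, 0.811 and 0.962). A probe set shared with Gm6756 differed by 0.02, 0.06, 0.20 and 1.603 at the 4 times. Psat1 and Psph, the next 2 steps of the pathway, rose at 11 days by 0.47 ± 0.069 (adjusted p = 1.64e-05) and 0.27 ± 0.076 (adjusted p = 0.0179). The call for Psph was lost without Flt3-L array 2 or CsA array 2 (adjusted p up to 0.106). Before that time the changes of both ran from -0.03 to 0.22 with none called, although the Psat1 arrays did not overlap at 24 h (768.3, 778.3 and 812.1 with CsA, 666.5, 742.2 and 718.8 without) or at 48 h. The 11-day change of Psph was not called as different from its earlier mean (adjusted p = 0.102).

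Gpt2, the mitochondrial alanine aminotransferase, had another course. With CsA it read 147.1, 132.3 and 150.5 at 24 h, against 107.6, 113.6 and 100.5 with Flt3-L alone, and the groups were separated. Its log2 change was 0.36 ± 0.090 at 12 h (adjusted p = 0.0218), 0.42 at 24 h (adjusted p = 0.00633) and 0.43 at 48 h (adjusted p = 0.00396). At 11 days it read 329.0, 404.2 and 336.0 with CsA and 380.8, 346.9 and 371.6 without, which overlapped, with a log2 change of -0.045 (adjusted p = 0.806). The calls at 12 h and 48 h were lost in the fit of the compared groups alone (adjusted p = 0.0589 and 0.0587), and the first also without Flt3-L array 1 or 3 or CsA array 1 or 2 (adjusted p up to 0.118).

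Mitochondrial one-carbon enzymes pass the serine carbon into folate and on to purine and thymidylate synthesis. Mthfd2, whose enzyme oxidises methylene-tetrahydrofolate, rose at all 4 times. It read 1530.5, 1515.2 and 1522.5 with CsA at 12 h and 1289.8, 1104.7 and 1094.4 with Flt3-L alone. It read 995.5, 1097.1 and 1387.3 with CsA at 24 h and 700.0, 743.6 and 848.4 without. At 48 h it was at 1064.7, 1103.0 and 1090.2 with CsA and at 682.1, 699.8 and 862.3 without. At none of these times did the groups overlap, although the arrays within a group spread widely, in CsA cultures at 24 h above all. Log2 changes were 0.39 ± 0.099 at 12 h (adjusted p = 0.022), 0.59 at 24 h (adjusted p = 0.000508), 0.55 at 48 h (adjusted p = 0.00102) and 0.54 at 11 days (adjusted p = 0.000364). The 12 h call was lost without Flt3-L array 2 or 3 or CsA array 1 or 2 (adjusted p up to 0.0892) and in the fit of those groups alone (adjusted p = 0.051).

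Shmt2, which splits serine into glycine and a one-carbon unit, rose at 12 h (0.30 ± 0.060, adjusted p = 0.00417), at 24 h (0.23, adjusted p = 0.0285) and at 11 days, and its change at 48 h was 0.20 (adjusted p = 0.0508, or 0.0332 with the replicate block). The 12 h and 24 h calls were lost in the fit of the compared groups alone (adjusted p = 0.0591 and 0.126), and the second also without any single array of its 6 but CsA array 2 (adjusted p up to 0.141). At 11 days it read 700.8, 798.6 and 786.3 with CsA, against 460.2, 486.8 and 496.4 with Flt3-L alone. These groups lay far apart, with a log2 change of 0.66 (adjusted p = 1.02e-08).

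Of the 6 amino acid transporters 1 rose with CsA at 12 h, 3 at 24 h, 4 at 48 h and 5 at 11 days, when 1 fell. Slc7a1, the carrier of arginine and lysine, read 586.7, 590.8 and 649.8 with CsA at 24 h, against 468.2, 449.7 and 436.3 with Flt3-L alone. At 11 days it read 726.9, 909.5 and 834.7 with CsA, against 508.0, 510.2 and 467.0 without. All CsA arrays exceeded the others, and the log2 changes were 0.43 ± 0.063 at 24 h (adjusted p = 0.000129), 0.41 at 48 h (adjusted p = 0.00017) and 0.73 at 11 days (adjusted p = 5.39e-09). Slc7a1 was not called at 12 h (adjusted p = 0.0546, or 0.0487 with the replicate block).

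Slc1a4 and Slc1a5 are related sodium-dependent carriers of small neutral amino acids, the second best known for glutamine. They moved apart at 11 days. Slc1a4 was the transporter called at 12 h (0.22, adjusted p = 0.048), a call lost without any single array of its 6 but CsA array 3 (adjusted p up to 0.208). Slc1a4 read 186.0, 186.0 and 203.2 with CsA at 48 h, against 140.6, 137.7 and 147.0 with Flt3-L alone. At 11 days it read 195.5, 214.9 and 213.1 with CsA, against 129.0, 121.7 and 112.6 without. Both times were free of overlap, with log2 changes of 0.435 ± 0.065 (adjusted p = 0.000129) and 0.78 ± 0.065 (adjusted p = 2.89e-09). Slc1a5 read 479.7, 505.9 and 447.7 with CsA at 11 days, against 746.7, 767.0 and 748.7 without. It was the only member to fall with CsA at any time, by 0.66 on the log2 scale (SE 0.058, adjusted p = 6.65e-09), a 1.58-fold lower signal. At 12 h, 24 h and 48 h its log2 changes were 0.14, 0.16 and 0.13, none called.

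Slc7a5 and Slc3a2 encode the light and heavy chains of the large neutral amino acid carrier LAT1. Slc7a5 rose by 0.35 ± 0.065 at 24 h (adjusted p = 0.00165), 0.38 at 48 h (adjusted p = 0.000505) and 0.52 at 11 days (adjusted p = 1.59e-06). Slc3a2 was called at the same 3 times with smaller log2 changes of 0.17, 0.15 and 0.15 (SE 0.040, adjusted p = 0.0155, 0.0295 and 0.0157). Each of the Slc3a2 calls was lost in the fit of the compared groups alone, with adjusted p of 0.141 to 0.26. The call at 48 h was also lost under both other scalings (adjusted p = 0.0595 and 0.0721) and without any single array of its 6 (adjusted p up to 0.111). That at 24 h was lost without Flt3-L array 2 or CsA array 3 (adjusted p up to 0.0763). That at 11 days was lost without Flt3-L array 1 or CsA array 2 or 3 (adjusted p up to 0.0775). Slc38a2, a glutamine and alanine carrier, was higher with CsA at 11 days by 0.52 ± 0.051 (adjusted p = 4.87e-08) and changed by 0.08, 0.04 and 0.05 before, with none called. With CsA it read 2663.9 to 2788.8 at 48 h and 2620.0 to 2925.6 at 11 days. With Flt3-L alone it read 2599.7 to 2648.0 and 1827.5 to 2008.2 at these times. Eif4ebp1, whose protein holds back cap-dependent translation, rose at 11 days by 0.29 ± 0.058 (adjusted p = 0.00078) and changed by 0.10 to 0.11 earlier, with none called.

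Whether the CsA change at 11 days differed from the mean of the 3 earlier changes was tested in the same fit. The difference was positive for 8 of 33 members and negative for 2, with 5.21% of all genes positive and 6.7% negative. None of the 17 synthetases was among them, where the median difference was -0.01. The positive ones were Phgdh (1.11 ± 0.102, adjusted p = 2.61e-08), Asns (0.66 ± 0.076, adjusted p = 8.99e-07), Slc1a4 (0.50, adjusted p = 3.84e-05), Slc38a2 (0.46, adjusted p = 5.08e-06), Shmt2, Slc7a1, Psat1 and Slc7a5. The negative ones were Slc1a5 (-0.80 ± 0.067, adjusted p = 5.35e-09) and Gpt2 (-0.45 ± 0.104, adjusted p = 0.00466). The late difference thus involved synthesis, one-carbon and transporter genes.

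**Figure D3:**
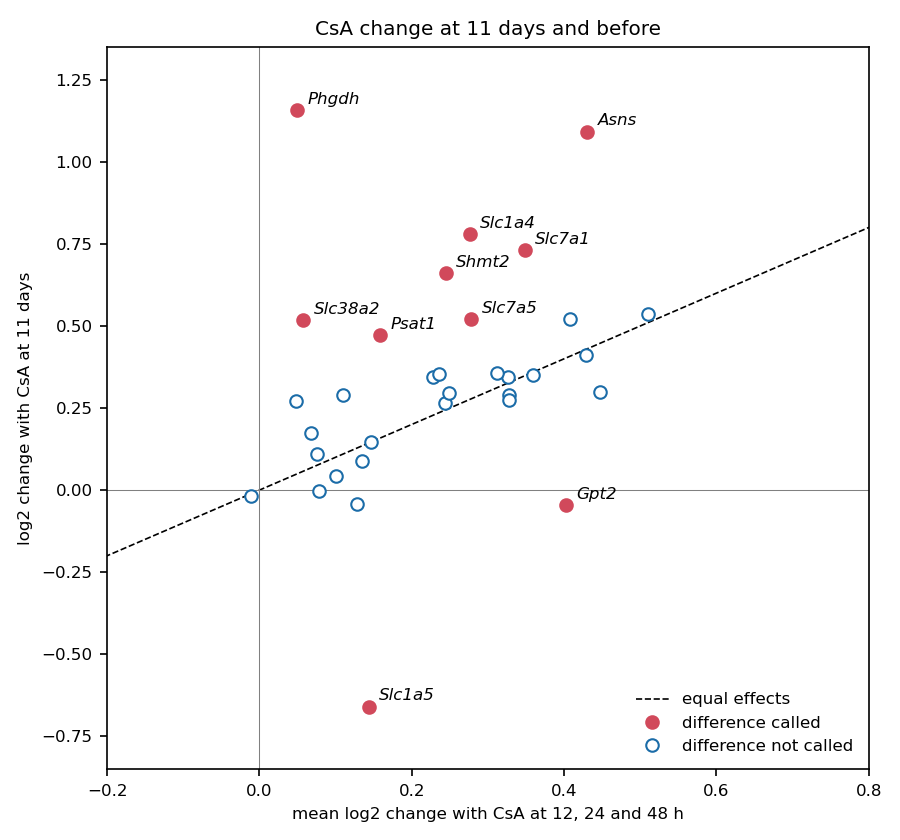
Log2 change with CsA at 11 days (y axis) against the mean of the log2 changes at 12 h, 24 h and 48 h (x axis) for 33 members; the dashed line marks equal changes. The 8 filled points above the line and the 2 below it are the members whose difference was called, from 1.11 for Phgdh to -0.80 for Slc1a5.

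The cell mixture also differed with CsA, most at 11 days. There all 4 progenitor markers were lower (summed signal 581.7 to 846.4 with CsA, 1269.9 to 1325.0 without), all 4 conventional dendritic cell markers (1928.4 to 2411.9 with CsA, 4698.9 to 5188.0 without) and all 3 B lineage markers (258.6 to 285.8 with CsA, 1097.3 to 1396.6 without). So were 3 of 4 neutrophil markers (286.4 to 452.1 with CsA, 1009.9 to 1117.0 without), 3 of 4 T and NK cell markers (239.6 to 291.1 with CsA, 262.0 to 451.6 without) and 2 of 3 plasmacytoid dendritic cell markers (1483.8 to 1779.6 with CsA, 1666.0 to 1883.2 without). Of 3 megakaryocyte markers 1 was lower (2050.6 to 2702.5 with CsA, 3216.4 to 3789.0 without). Monocyte and macrophage markers were not called at 11 days (16636.3 to 17176.0 with CsA, 15667.1 to 16640.6 without).

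Some markers had moved before 11 days. At 12 h 2 of 3 monocyte and macrophage markers were lower with CsA (5941.5 to 6504.2 with CsA, 7059.7 to 7454.3 without). At 24 h 3 of 4 mast cell, basophil and eosinophil markers were lower (2760.7 to 3037.7 with CsA, 5600.1 to 6149.8 without), and 3 of 4 again at 48 h (1643.8 to 1916.3 with CsA, 2565.8 to 2897.3 without) and at 11 days (190.9 to 206.8 with CsA, 289.6 to 344.7 without). All 3 B lineage markers were lower at 48 h (4268.0 to 5396.9 with CsA, 6561.4 to 7155.8 without). Of the 4 neutrophil markers only Ly6g was called at 24 h (2049.0 to 2427.5 with CsA, 3353.7 to 3879.3 without) and at 48 h (1501.2 to 1687.8 with CsA, 2663.3 to 3225.8 without). The sum of all 4 overlapped at 24 h (22094.8 to 22889.6 with CsA, 22653.5 to 23625.7 without). It also overlapped at 48 h (19197.8 to 20380.9 with CsA, 20224.7 to 21571.1 without). The sum of granulocyte precursor markers at 24 h did not overlap (11826.3 to 12236.5 with CsA, 13607.4 to 13954.6 without), with none of the 4 called. The part of these shifts in the values of the members was not tested.

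With Flt3-L alone the same genes moved in both directions over time. Against unstimulated marrow, 12 of 33 members were higher and 9 lower at 12 h, where 17.8% of all genes were higher and 18.1% lower. At 24 h 6 were higher and 13 lower (all genes: 17.9% and 17.7%). More members were lower than higher at 24 h, unlike at 12 h. At 48 h 5 were higher and 10 lower (all genes: 18.5% and 18.6%), and a further quantile normalization gave 9 higher and 10 lower. At 11 days 15 were higher and 12 lower (all genes: 27.2% and 24.8%). The counts thus stood near or above the background in both directions, and the members had no common course. These comparisons share the unstimulated arrays with each other, and the Flt3-L arrays with the CsA comparisons.

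**Figure D4:**
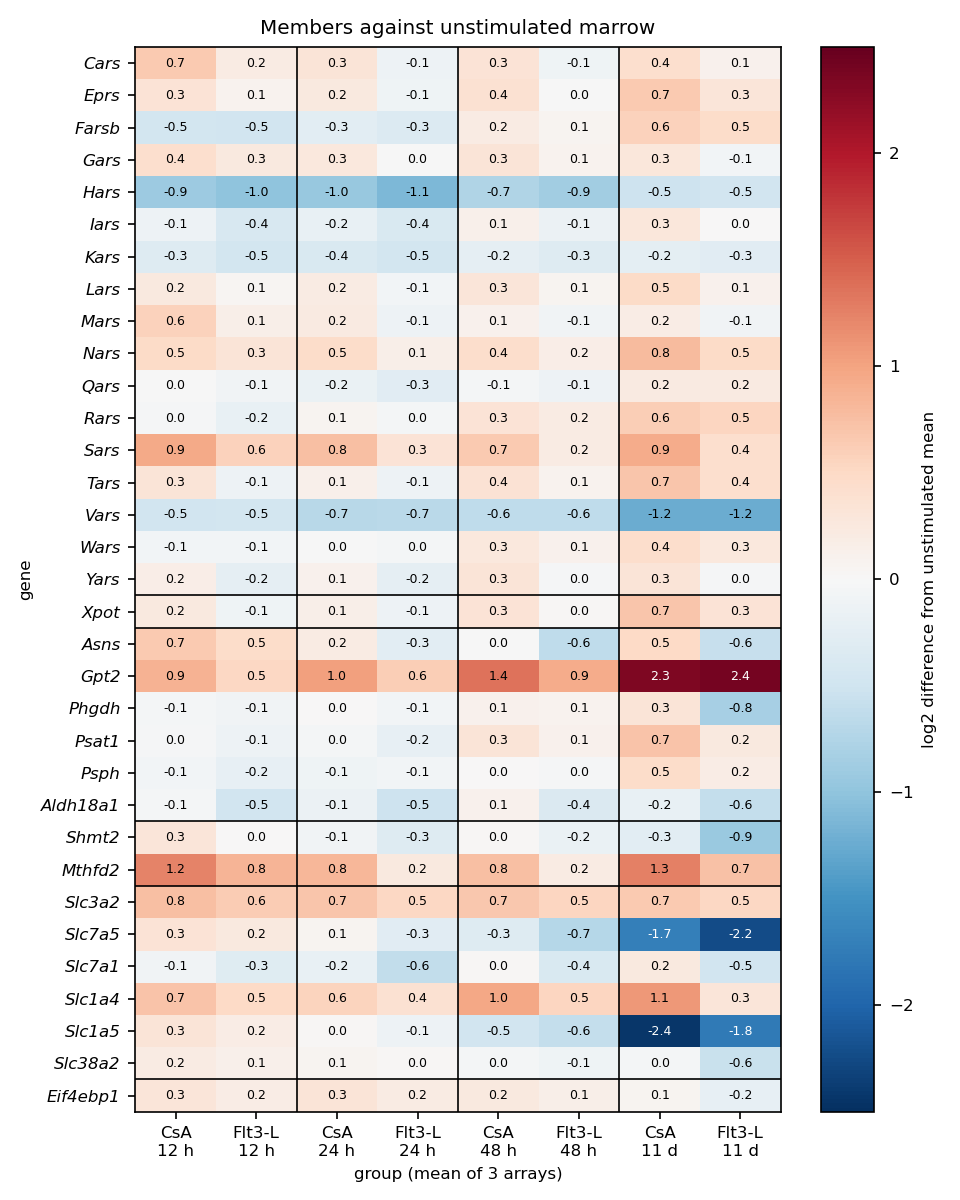
Difference of group mean log2 signal from the unstimulated mean (colour and printed value) for 33 members (rows, ordered by role) in 8 groups, CsA left of Flt3-L alone at each time. Hars and Vars are lower in all 8 groups, Gpt2 is highest at 11 days (2.39 with Flt3-L alone), and Slc7a5 and Slc1a5 turn from higher at 12 h to lower at 11 days.

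Among the synthetases Sars and Nars were higher than in unstimulated marrow at all 4 times and Hars, Kars and Vars lower at all 4. The Nars calls at 24 h and 48 h were lost in the fit of the compared groups alone (adjusted p = 0.0781 and 0.0606), and the first without unstimulated array 2 or Flt3-L array 2 or 3 (adjusted p up to 0.108). Sars read 1540.3, 1462.7 and 1531.3 at 12 h of Flt3-L, against 978.7, 1034.3 and 1024.2 in unstimulated marrow, a log2 change of 0.58 ± 0.056 (adjusted p = 8.01e-09). Hars read 417.4, 368.9 and 376.5 at 12 h, 313.7, 369.8 and 388.9 at 24 h and 400.3, 407.3 and 463.8 at 48 h of Flt3-L, against 749.1, 775.7 and 806.7 in unstimulated marrow. All of its Flt3-L arrays lay below every unstimulated array, and it fell by 1.13 on the log2 scale at 24 h (SE 0.087, adjusted p = 9.62e-11). Vars read 1056.8, 985.7 and 953.0 at 24 h and 662.2, 673.1 and 705.9 at 11 days, against 1617.2, 1586.6 and 1591.6 in unstimulated marrow. It fell by 0.68 at 24 h (adjusted p = 1.58e-11) and by 1.23 at 11 days (SE 0.048, adjusted p = 1.98e-17), again with no overlap.

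Gpt2 was the member with the largest rise. Its signals were 107.6, 113.6 and 100.5 at 24 h, 119.5, 140.0 and 143.0 at 48 h and 380.8, 346.9 and 371.6 at 11 days of Flt3-L, against 74.0, 63.6 and 73.1 in unstimulated marrow. The unstimulated signals lay below the medians of their arrays (119.4 to 120.5), so the fold change starts from a low signal. Every Flt3-L array lay above every unstimulated array, with log2 changes of 0.61 at 24 h, 0.93 at 48 h and 2.39 ± 0.090 at 11 days, the last 5.22-fold (adjusted p = 1.06e-17). Mthfd2 read 1289.8, 1104.7 and 1094.4 at 12 h, against 630.5, 634.2 and 665.4 in unstimulated marrow, a log2 change of 0.85 ± 0.099 (adjusted p = 1.72e-07). Asns was higher at 12 h (0.45, adjusted p = 4.64e-06) and lower from 24 h on. At 48 h it read 1641.0, 1671.7 and 1698.2 with Flt3-L, against 2620.1, 2706.0 and 2497.1 in unstimulated marrow, a fall by 0.64 on the log2 scale (SE 0.066, adjusted p = 1.06e-08).

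The 2 chains of LAT1 took different courses with Flt3-L. Slc3a2 read 5612.0, 5578.5 and 5647.3 at 12 h, against 3524.6, 3734.7 and 3609.9 in unstimulated marrow, a log2 change of 0.63 ± 0.040 (adjusted p = 4.98e-12), and it was still higher by 0.51 at 11 days. Slc7a5 read 1678.5, 1642.1 and 1872.5 at 48 h and 590.9, 652.9 and 568.4 at 11 days, against 2804.1, 2768.7 and 2902.1 in unstimulated marrow. Slc7a5 was higher at 12 h by 0.24 (adjusted p = 0.00473) and then fell by 0.71 at 48 h (adjusted p = 1.31e-09) and by 2.23 at 11 days (SE 0.065, adjusted p = 5.59e-20). Slc1a5 read 746.7, 767.0 and 748.7 at 11 days of Flt3-L, against 2612.1, 2478.3 and 2657.7 in unstimulated marrow, a 3.42-fold lower signal (adjusted p = 5.62e-19). Slc7a1 read 468.2, 449.7 and 436.3 at 24 h, against 675.6, 694.6 and 704.0 in unstimulated marrow, and fell by 0.62 on the log2 scale (adjusted p = 1.52e-08).

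From 12 h to 24 h of Flt3-L none of the 33 members rose and 13 fell, where 5.59% of all genes rose and 5.52% fell. Asns had 2115.0, 2236.1 and 2207.3 signal units at 24 h, against 3569.3, 3556.2 and 3568.6 at 12 h, and fell by 0.71 on the log2 scale (SE 0.066, adjusted p = 2.48e-08). Mthfd2 had 700.0, 743.6 and 848.4 at 24 h, against 1289.8, 1104.7 and 1094.4 at 12 h, and fell by 0.61 (SE 0.099, adjusted p = 9.51e-05). Both genes, for asparagine and for one-carbon metabolism, had been above unstimulated marrow at 12 h. Slc7a5 had 2337.3, 2192.8 and 2449.4 at 24 h, against 3330.7, 3303.1 and 3372.5 at 12 h, and fell by 0.52 (adjusted p = 2.07e-06). Cars had 515.4, 473.6 and 557.1 at 24 h, against 623.3, 654.1 and 675.0 at 12 h, and fell by 0.34 (adjusted p = 0.00064). Farsb changed by 0.14 (adjusted p = 0.0566) and passed with array weights, with another variance model, with dim genes left out and without array 2 at 24 h. None of the 4 genes that fell, just given, overlapped between the times, and 7 of the 13 that fell were synthetases. Among these, the call for Eprs was lost without any single array of its 6 (adjusted p up to 0.208). It was also lost with the replicate block (adjusted p = 0.0504). In the fit of the compared groups alone Eprs, Nars and Qars were not called (adjusted p = 0.0626, 0.127 and 0.0552). Nars was lost without several single arrays (adjusted p up to 0.172), and Sars without array 2 at 24 h (adjusted p = 0.0515).

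From 24 h to 48 h 7 members rose and 3 fell (all genes: 9.71% rose, 7.43% fell). A further quantile normalization gave 9 that rose and 5 that fell, and the number that rose was 4 in the fit of those groups alone, without array 1 at 24 h or without array 3 at 48 h. Farsb had 732.6, 683.7 and 721.2 at 48 h, against 557.4, 509.4 and 553.8 at 24 h, a log2 change of 0.40 ± 0.048 (adjusted p = 9.43e-07). Slc1a5 had 1785.2, 1600.2 and 1714.5 at 48 h, against 2435.8, 2263.1 and 2358.4 at 24 h, and fell by 0.47 (adjusted p = 1.65e-06). These groups were separated, as were those of Slc7a5 and Asns, which fell by 0.43 (adjusted p = 2.81e-05) and 0.39 (adjusted p = 0.000119). Iars was the called member whose groups overlapped (adjusted p = 0.0409), and its call was lost with array weights (adjusted p = 0.0659), in the fit of the groups compared (adjusted p = 0.0981) and without array 1 or 3 at 24 h or array 1 or 2 at 48 h (adjusted p up to 0.19).

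Between 48 h and 11 days 14 members rose and 10 fell (all genes: 24.2% rose, 18.8% fell). Of the 17 synthetases 10 rose and 2 fell, Vars and Gars, and the call for Gars was lost with array medians subtracted (adjusted p = 0.14). Among those that rose, the call for Wars was lost after a further quantile normalization (adjusted p = 0.0547), with array weights (adjusted p = 0.0852), in the fit of the groups alone (adjusted p = 0.0904) and without Flt3-L array 1 or 3 at 48 h or array 2 or 3 at 11 days (adjusted p up to 0.174). That for Tars was lost without array 1 at 48 h or array 3 at 11 days (adjusted p up to 0.0979). Of the 6 transporters none rose and 4 fell. Slc7a5 and Slc1a5 fell by 1.52 (adjusted p = 4.77e-16) and 1.17 (adjusted p = 9.47e-15), and Gpt2 rose by 1.45 (adjusted p = 7.7e-13), from the arrays given above. Phgdh had 178.8, 199.4 and 182.2 at 11 days, against 335.1, 340.7 and 385.4 at 48 h, and fell by 0.92 on the log2 scale (SE 0.088, adjusted p = 2.75e-09). In CsA cultures Phgdh had 365.4, 461.2 and 427.7 at 11 days, against 365.1, 324.9 and 388.1 at 48 h.

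The mitochondrial tRNA synthetases, encoded for the most part by separate genes, were read as a further list. Of 16 measured, 1 rose at 24 h (Fars2, 0.38 ± 0.071, adjusted p = 0.00165) and none was called at 12 h, 48 h or 11 days, when their median log2 changes were 0.00, 0.05 and 0.05. Their difference from the cytosolic genes was not tested. With Flt3-L alone 11 of 16 were lower than in unstimulated marrow at 12 h, 10 at 24 h, 7 at 48 h and 6 at 11 days, and 1, 1, 1 and 2 were higher. Of all genes 18.1%, 17.7%, 18.6% and 24.8% were lower and 17.8%, 17.9%, 18.5% and 27.2% higher. Nars2 fell by 0.86 at 12 h (adjusted p = 6.44e-11). Of 6 genes of the multisynthetase complex and related cytosolic functions, 1 rose with CsA at 11 days, Tarsl2 (0.44 ± 0.103, adjusted p = 0.00421), and none was called at the other times.

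**Figure D5:**
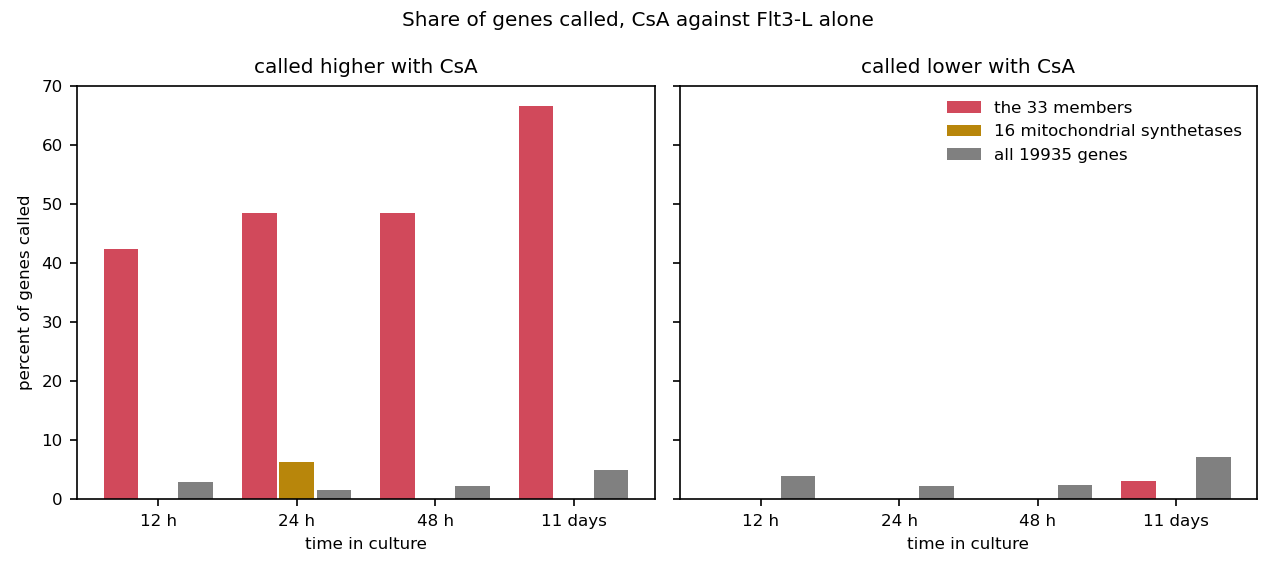
Percent of genes called higher (left) and lower (right) with CsA against Flt3-L alone at each time for the 33 members, 16 mitochondrial tRNA synthetases and all 19935 genes. Called higher are 42.4%, 48.5%, 48.5% and 66.7% of the members at 12 h, 24 h, 48 h and 11 days, beside 2.82%, 1.6%, 2.17% and 4.92% of all genes.

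Genes of the ATF4 pathway were read as a further list of 17 regulators. With CsA 6 were higher and none lower at 12 h, 7 and 1 at 24 h, 5 and 1 at 48 h, and 8 and 1 at 11 days. Of all genes 2.82%, 1.6%, 2.17% and 4.92% were higher and 3.91%, 2.19%, 2.35% and 7.08% lower at these times. The same shares stand beside the CsA counts of every further list. Atf4 itself rose at all 4 times, by 0.29, 0.34, 0.38 and 0.33 (SE 0.053, adjusted p = 0.00201, 0.000229, 5.29e-05 and 5.67e-05). Atf5, a related factor, rose by 0.49, 0.85, 0.97 and 0.60 (SE 0.084), and Trib3, a pseudokinase that restrains ATF4, by 0.36, 0.80, 0.89 and 0.83 (SE 0.108). Ddit3, which encodes CHOP, rose at 12 h by 0.575 (adjusted p = 0.00266), at 24 h by 0.41 (adjusted p = 0.0296) and at 11 days by 0.66 (adjusted p = 6.65e-05). Nupr1 and Chac1 rose at 11 days by 1.13 ± 0.082 (adjusted p = 2.06e-10) and 0.90 ± 0.109 (adjusted p = 1.13e-06). Eif2ak3, the kinase PERK, was the list's lower gene at 24 h and 48 h (-0.285 and -0.22), and Cebpb at 11 days (-0.31). Atf4, Eif2ak3 and Cebpb were singled out after their values were seen.

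Other amino acid genes were read as 2 further lists. Of 18 further enzymes of amino acid metabolism, 1 was higher and none lower with CsA at 12 h, none and 1 at 24 h, 2 and 2 at 48 h, and 3 and 1 at 11 days. Arg2, the mitochondrial arginase, fell at 24 h, 48 h and 11 days, with log2 changes of -0.44, -0.55 and -0.745 (SE 0.116, adjusted p = 0.0296, 0.00473 and 4.02e-05). Of 17 further transporters, 2 were higher and 1 lower at 12 h, 1 and none at 24 h and at 48 h, and 4 and 2 at 11 days. Slc7a11, the cystine and glutamate exchanger, was higher at 12 h (0.40 ± 0.095, adjusted p = 0.0159) and lower at 11 days (-1.39, adjusted p = 8.51e-11). Slc6a9, a glycine carrier, rose at 24 h, 48 h and 11 days by 0.30, 0.44 and 0.34 (SE 0.075).

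Of 13 genes of amino acid sensing by mTORC1, none was called with CsA at 12 h or 24 h, 1 was higher and 1 lower at 48 h, and 3 and 1 at 11 days, where Rragd, a Rag GTPase, rose by 0.81 ± 0.073 (adjusted p = 1.02e-08). Of 9 genes of the Myc family and its partners, 1 was higher at 12 h and none was called at 24 h or 48 h. At 11 days 1 was higher and 2 were lower, and Myc itself was not called at any time. Of 9 genes of dividing cells none was called at 12 h, 24 h or 48 h, and 2 were higher at 11 days, Rrm2 (0.26 ± 0.067) and Mcm2 (0.18 ± 0.056). The summed signal of the 9 was 7175.4 to 7577.4 with CsA and 6424.4 to 7254.9 without at 11 days, and with Flt3-L alone all 9 were lower than in unstimulated marrow at each time.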

How the data were processed

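The deposited values are probe set intensity on a linear scale (5.2 to 18180.7), which the authors made with RMA per the submitters' processing notes, with no version given. Log2 was taken here. Of 28815 probe sets, 23385 were listed with a gene in the platform annotation, which can be old: 21780 with 1 symbol, used here, and 1605 with several, left out. The other 5430 were not named. For 998 genes the brightest of several probe sets was taken. The model held a mean for each of the 9 groups (lmFit and eBayes of limma 3.58.1, R 4.3.3), with Benjamini-Hochberg adjustment over 19935 genes per comparison and calls at an adjusted p under 0.05. The fit was tested on simulated data. Errors are SE of the fit; precision is limited by 3 arrays a group. Plots were drawn with matplotlib 3.10.9 and tables made with pandas 2.3.3 and numpy 2.4.6 under Python 3.11.15.

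The 36 members, the further lists and the 12 marker lists were chosen with earlier results of these data known. All members may be named. Values of every array are given for up to 6 called members with the largest change in a CsA comparison and up to 4 in the others, and elsewhere counts and ranges. From further lists at most 4 called genes are named per comparison.

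Equal replicate numbers were checked by correlating, across genes, deviations from group means. All pairs were above 0.1 in the 24 h (0.3689, 0.3462 and 0.3984) and 48 h CsA comparisons, for Flt3-L at 12 h and 24 h against unstimulated marrow, and for the 24 h to 48 h step. In the 48 h CsA comparison numbers 2 and 3 correlated more with another number (0.2334 and 0.2159) than with their own (0.1783 and 0.1919). So did number 2 for Flt3-L at 24 h against unstimulated marrow (0.1741, against 0.1258 with its own). The labels state no pairing, so the fit has no block. Alternatives were another variance model, a filter on dim genes, 2 scalings, only the groups compared, averaged probe sets, array weights, a replicate block and leaving out each array.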

Additional observations from a re-analysis of the deposited data

Results flagged for a closer look

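These 10 members are listed because the CsA change at 11 days differed from the mean of those at 12 h, 24 h and 48 h in a test of that difference (limma, adjusted p under 0.05). For the enzymes the log2 differences were 1.11 for Phgdh (1.16 at 11 days, 0.05 before), 0.66 for Asns (1.09 and 0.43), 0.42 for Shmt2 (0.66 and 0.245) and 0.315 for Psat1 (0.47 and 0.16). For Gpt2 the log2 difference was -0.45 (-0.045 at 11 days, 0.40 before). Among transporters they were 0.50 for Slc1a4 (0.78 and 0.28), 0.46 for Slc38a2 (0.52 and 0.06), 0.38 for Slc7a1 (0.73 and 0.35), 0.24 for Slc7a5 (0.52 and 0.28) and -0.80 for Slc1a5 (-0.66 and 0.14). The call for Slc7a5 was lost with array medians subtracted (adjusted p = 0.0569) and without 4 of the arrays in turn, and that for Psat1 without Flt3-L array 3 or CsA array 2 at 11 days. Progenitor, dendritic cell, B lineage and neutrophil markers were also lower with CsA at 11 days, and their part in these differences was not tested.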

How the results depend on the processing

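Of 208 called member changes, 161 kept their call in every alternative and 47 lost it in at least 1, and none reversed its sign. The number of members called at 12 h with CsA was 14, against 7 in a fit of those groups alone, and 8 to 14 leaving out an array. The other totals of called members stayed within 1.5 times, although counts in a single direction did not for Flt3-L at 48 h and the 24 h to 48 h step. Leaving out an array gave 12 to 16 at 24 h, 12 to 15 at 48 h and 20 to 24 at 11 days with CsA. For Flt3-L against unstimulated marrow it gave 17 to 23 at 12 h, 17 to 19 at 24 h, 13 to 15 at 48 h and 26 at 11 days. For the steps it gave 11 to 13, 7 to 11 and 21 to 23, and for the late difference 8 to 11.

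With the replicate number as a block, 18 members were called at 12 h, 17 at 24 h, 18 at 48 h and 26 at 11 days with CsA. For Flt3-L against unstimulated marrow the block gave 21, 20, 16 and 27, for the steps 12, 13 and 24, and for the late difference 10. It added 15 calls, and the only call lost with it was Eprs from 12 h to 24 h (adjusted p = 0.0504). The smallest log2 change called with CsA was 0.146 (Slc3a2 at 11 days).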
